A study of Mus musculus with 48 samples.

Results

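The 1408 sites described here bound wild-type CTCF, had no peak of the CTCF mutants R377H and R448Q, and kept a peak of the mutant R377C, in which the arginine changed in R377H is replaced by a cysteine and not a histidine. They were taken from 15392 peaks of FLAG-tagged wild-type (WT) CTCF, with peaks of identical coordinates counted once. Of these, 14023 overlapped a peak of an antibody to CTCF itself in the same treated cells, and the 1408 are 10.0% of them. A site counted as kept in a mutant where a FLAG peak of that mutant overlapped it by at least 1 bp, and as lost where none did, so "lost" means that no peak was called. The presence or absence of FLAG peaks in R377C, R377H and R448Q chose the sites, so those values are given as a description and carry no test.

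The cells were E14Tg2a mouse embryonic stem cells, in which an auxin-inducible degron removes endogenous CTCF and doxycycline switches on a stable FLAG-tagged Ctcf transgene. The transgene was either WT or 1 of 9 mutants named by the residue changed: R377C, R377H and R448Q, which chose the sites, and R339Q, R342C, S354F, K365T, Q418R and H455R, which did not. All WT and mutant cells compared here received 500 µM indole-3-acetic acid (IAA, an auxin) together with 1 µg/ml doxycycline for 2 days. The untreated WT cells used for 1 CTCF antibody list received neither and still had their own CTCF. ChIPmentation, in which a transposase adds sequencing adapters to immunoprecipitated chromatin, was done for FLAG (10 genotypes), for the cohesin subunit SMC3 (10 genotypes) and for CTCF (WT, treated and untreated). Each genotype is 1 cell line, so the effect of a mutation and of its line cannot be told apart. Each peak list pools 2 replicates, which leaves 1 value per genotype and assay, no spread between replicates and no p-value for any single genotype. Intervals in parentheses are 95% Wilson intervals over sites and cover counting error only.

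CTCF binds DNA through a row of zinc fingers, each of which contacts a few bases of a long recognition sequence. Cohesin is a ring-shaped complex that extrudes chromatin loops, and CTCF stops it at its binding sites, so SMC3 gathers where CTCF is bound. Arginine side chains in zinc fingers often touch DNA bases or the phosphate backbone, and changes at such residues can weaken binding at some sites more than at others.

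The lists themselves differed in length, which the absence of a peak depends on. The FLAG lists held 15392 peaks in WT, 30462 in R377C, 16473 in R377H and 19403 in R448Q, and between 3855 (H455R) and 30332 (Q418R) in the other mutants. The SMC3 lists held 71962 peaks in WT and between 42030 (Q418R) and 153647 (R448Q) in the mutants. Sequencing depth is unknown, since the lists hold no read counts, and the longest of the FLAG lists is that of R377C, the mutant in which the sites had to be kept. When the lists of R377C, R377H and R448Q were each cut to their 16473 highest peaks, 841 sites met the rule, and 714 of these were among the 1408.

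Sequence could be read where a site overlapped the 300-base promoter window of a RefSeq gene (GRCm38.p6, 250 bases before the transcription start to 50 after) by at least 100 bases, which held for 51 of the 1408 sites. The core of the CTCF recognition sequence was searched as CC, any 3 bases, AG, any 2 bases and GGC, on both strands within the part of the peak that the window covers. It was found at 24 of the 51 sites (47.1%, 34.1 to 60.5), at 221 of 426 promoter sites kept in all 3 mutants (51.9%), at 18 of 49 lost in R377H only (36.7%) and at 12 of 28 lost in R448Q only (42.9%). Of all 32851 promoter windows, 8.61% held it. The stretch searched was shorter at the 51 sites (median 159 bases) than at those kept in all 3 (median 263 bases). Within 200 bp around the middle of each peak, where the lengths were alike, the shares were 44% and 53.5%. The intervals overlap, so the share of promoter sites with the core was not told apart between these 2 sets at this number of sites. The promoter sites are a small and CpG-rich part of the 1408, and every one of the 51 held a CpG.

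Of the 24 promoter sites, 6 are shown because they have the highest WT FLAG values among those whose match lies before the transcription start, together with 2 strong promoter sites that all 3 mutants kept. The letters are those of the gene's strand, 5′ to 3′, and the capitals mark the match to that core. The stretches lie at chr9:118489809-118489908 (minus strand, Gm33460, next to Eomes), chr16:3908902-3909001 (plus strand, Cluap1), chr13:113618658-113618757 (minus strand, Snx18), chr3:96708561-96708621 (minus strand, Nudt17), chr9:66158086-66158184 (plus strand, Dapk2) and chr10:62111024-62111123 (minus strand, Fam241b). The kept ones lie at chr16:5306816-5306914 (minus strand, Gm52265) and chr11:55204209-55204308 (plus strand, Slc36a1).
Gm33460: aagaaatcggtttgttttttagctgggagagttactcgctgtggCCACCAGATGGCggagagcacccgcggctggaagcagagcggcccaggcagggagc
Cluap1: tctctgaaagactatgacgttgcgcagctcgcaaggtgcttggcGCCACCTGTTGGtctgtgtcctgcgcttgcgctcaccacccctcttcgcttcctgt
Snx18: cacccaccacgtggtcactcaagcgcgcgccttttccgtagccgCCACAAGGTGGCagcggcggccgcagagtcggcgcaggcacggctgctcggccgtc
Nudt17: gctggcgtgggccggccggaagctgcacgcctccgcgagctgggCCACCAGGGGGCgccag
Dapk2: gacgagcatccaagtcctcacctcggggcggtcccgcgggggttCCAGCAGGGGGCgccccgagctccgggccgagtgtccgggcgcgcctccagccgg
Fam241b: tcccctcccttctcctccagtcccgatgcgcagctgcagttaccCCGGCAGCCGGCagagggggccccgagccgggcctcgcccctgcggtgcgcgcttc
Gm52265: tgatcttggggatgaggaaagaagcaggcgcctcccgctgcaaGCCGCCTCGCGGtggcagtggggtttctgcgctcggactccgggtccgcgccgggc
Slc36a1: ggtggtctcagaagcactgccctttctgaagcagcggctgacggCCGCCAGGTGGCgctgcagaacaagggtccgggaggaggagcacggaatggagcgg

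In Cluap1 and in the kept Gm52265 the match runs on the opposite strand, so the capitals there are its reverse complement. Read on the strand of the motif, the cores were CCACCAGATGGC at Gm33460, CCAACAGGTGGC at Cluap1, CCACAAGGTGGC at Snx18, CCACCAGGGGGC at Nudt17, CCAGCAGGGGGC at Dapk2 and CCGGCAGCCGGC at Fam241b. The kept sites held CCGCGAGGCGGC at Gm52265 and CCGCCAGGTGGC at Slc36a1. The fixed letters are alike by the search, so only the free letters can differ. Among the 24 matches, the first free letter was A in 14 (58.3%) and G in 8 (33.3%), and among the 221 matches at kept sites it was A in 98 (44.3%) and G in 83 (37.6%). The last free letter before the closing GGC was G in 14 of 24 (58.3%) against 159 of 221 (71.9%). These are counts of letters over few sites, without a test.

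In the WT cells the 1408 sites were weak CTCF sites by FLAG. The value that the authors' lists give each peak had a median of 2.95 at these sites (lower quartile 2.54, upper quartile 3.48, range 1.47 to 7.30). The median was 4.32 at the 9984 sites kept in R377C, R377H and R448Q. It was 3.29 at the 1334 sites lost in R377H only, 3.12 at the 971 lost in R448Q only and 2.78 at the 278 lost in all 3. What this value measures is not given in the sources used here, so peaks were ranked by it inside 1 list and never across lists. As a rank within the WT list, the 1408 sites stood at a median percentile of 29.5, against 64.2 for the sites kept in all 3. They were also narrow, with a median width of 169 bp against 308 bp, and 8.81% had more than 1 summit against 19.2%.

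**Figure D1:**
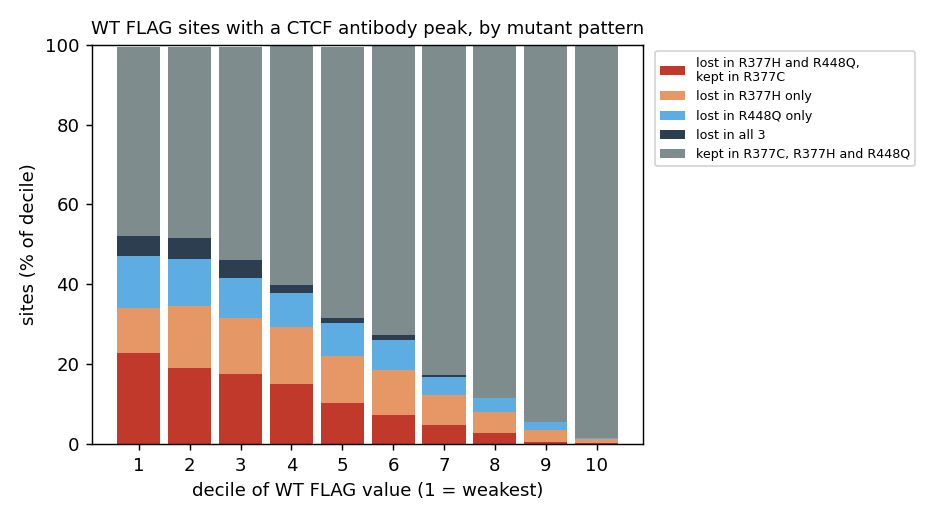
Share of WT FLAG sites with a CTCF antibody peak (y axis, percent) in each decile of the WT FLAG value (x axis, decile 1 is the weakest), split by which of R377C, R377H and R448Q kept a FLAG peak (48 sites kept in R377H or R448Q but not in R377C are left blank at the top). Sites lost in R377H and R448Q and kept in R377C fall from 22.7% of the weakest decile to 0.214% of the strongest.

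The share of sites with the pattern fell with WT strength at every step. It was 22.7% in the weakest decile of WT FLAG value (319 of 1403 sites), 10.3% in the fifth and 0.214% in the strongest (3 of 1403). The other loss patterns were also more frequent among weak sites, so a comparison with the kept sites needs WT strength to be matched, and standardised values below are those of the kept sites reweighted to the deciles of the 1408. In the R377C list the overlapping peaks stood at a median percentile of 46.3 (quartiles 28.5 and 58.2), against 83.6 at sites kept in all 3. By median the 1408 sites were therefore of middle rank among R377C peaks, with a lower quartile at percentile 28.5.

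The same sites were strong in the CTCF antibody lists, which the rule used for presence alone (treated) or not at all (untreated). In untreated WT cells, which hold endogenous CTCF, all 1408 had a peak, as did 14022 of the 14023 sites overall. Their median percentile in that list was 94.6, beside 95.9 for sites kept in all 3, 93.8 for those lost in R377H only, 95.3 for those lost in R448Q only and 91.9 for those lost in all 3. Matched for WT FLAG value, the mean percentile was 93.8 at the 1408 sites and 94.7 at the kept sites, a gap of under 1 percentile point. In the treated list the medians were 91.6 and 95.5. Sites that ranked low in the WT FLAG list thus ranked high in the antibody lists, which are many times longer (116973 treated and 175815 untreated peaks against 15392).

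By overlap and distance few sites sat at the edge of the rule, but by peak rank many did. Only 714 of the 1408 (50.7%) had an R377C peak among the 16473 highest of that list, the length of the R377H list. The others met the rule through lower R377C peaks. The overlap with the R377C peak had a median of 155 bp and was 20 bp or less at 9 sites (0.639%). An R377H peak lay within 500 bp without touching the site at 66 sites (4.69%), and an R448Q peak at 64 (4.55%). Just outside the rule, among the 971 sites that only an R377H peak kept out, that peak overlapped by 20 bp or less at 8 and stood at a median percentile of 32.0 in its list, against 68.7 for R377H peaks at sites kept in all 3. Among the 1334 sites that only an R448Q peak kept out, 7 had such a short overlap and the median percentile of the R448Q peak was 44.7, against 71.6.

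FLAG peaks of the 6 mutants that the rule did not use were less frequent at these sites than at the kept sites in every mutant. S354F, with 24152 peaks, had a FLAG peak at 89.6% of the 1408 sites (87.9 to 91.1), beside 95.8% of kept sites and 93.5% of all 14023. R342C had one at 45.5% (42.9 to 48.1), beside 90.2% and 78.9%. R339Q had one at 33.5% (31.1 to 36), beside 67.3% and 58.1%. Of these mutants S354F thus had the highest share and R339Q the lowest, each from 1 pooled list, so the differences between them have no replicate check.

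The remaining mutants covered fewer. Q418R had a FLAG peak at 18.5% of the sites (16.6 to 20.7), beside 76.1% of kept sites and 62.2% of all sites, with a list of 30332 peaks. K365T had one at 10.4% (8.95 to 12.1), beside 71.6% and 55.4%. H455R, the mutant with the fewest peaks, had one at 2 of 1408 sites (0.142%, 0.0390 to 0.516), beside 12% and 9.26%. Q418R and K365T stood farthest below their shares at kept sites. The part of list length in these shares was not tested.

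**Figure D2:**
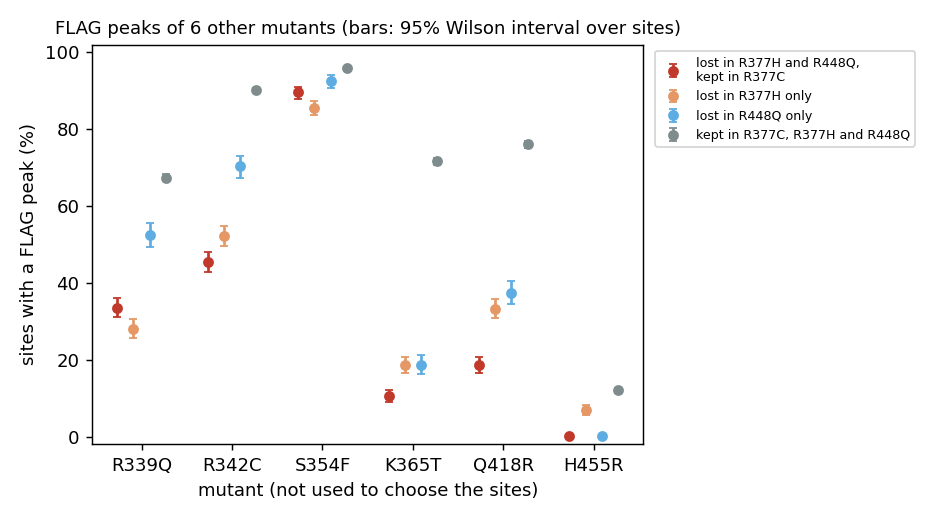
Percent of sites with a FLAG peak (y axis) in each of the 6 mutants that did not enter the choice of sites (x axis), for 4 sets of WT FLAG sites; points are shares and bars 95% Wilson intervals over sites. In all 6 mutants the sites lost in R377H and R448Q (1408 sites, leftmost point) lie below those kept in all 3 (9984 sites, rightmost point).

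Over the 6 mutants the share at the 1408 sites was lower than at the kept sites, with a mean difference of -35.9 percentage points. The differences had an SD of 23.0 (n = 6) and ran from -61.2 in K365T to -6.27 in S354F. All 6 were negative, and the exact two-sided sign-flip permutation test over mutants gave p = 0.03125, the smallest that 6 mutants can give (0.0469 adjusted over 3 tests, Benjamini-Hochberg). With the kept sites matched for WT FLAG value the mean difference was -27.9 points and again negative in all 6 mutants, from -49.8 in Q418R to -3.42 in S354F. With any 1 mutant left out the p-value of this exact test is 0.0625, the smallest that 5 allow. All mutants are set against the same WT sites, so their differences share those lists, and the sites were chosen with earlier results of these lists known. Both sets were chosen by the absence or presence of R377H and R448Q peaks, so a site strength shared across mutants could set the sign in advance. Matching on WT FLAG value does not match the rank in R377C, where the median percentiles were 46.3 and 83.6. The p-value thus says nothing beyond that choice, and the part of site strength was not tested.

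Against the sites lost in only 1 of the 2 mutants the picture was uneven. R339Q kept 33.5% of the 1408 sites, 28.1% of those lost in R377H only (25.8 to 30.6) and 52.5% of those lost in R448Q only (49.4 to 55.6). Q418R kept 18.5%, 33.3% and 37.4%, and K365T 10.4%, 18.6% and 18.5%, while R342C kept 45.5%, 52.2% and 70.3% and S354F 89.6%, 85.6% and 92.6%. The sites lost in R377H and R448Q together thus had the lowest share of the 3 sets in R342C, K365T and Q418R, but not in R339Q, S354F or H455R. H455R had a FLAG peak at 91 of the 1334 sites that R448Q kept and R377H lost (6.82%, 5.59 to 8.30), at 1 of the 971 sites that R377H kept and R448Q lost (0.103%, 0.0182 to 0.581), and at 2 of the 1408. Of the 94 H455R peaks in these 3 sets, 91 thus lay where R448Q also had one. These shares come from single pooled lists and were not tested.

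Most sites kept FLAG in R377C and in only a few of the other mutants. Of the 1408 sites, 63 (4.47%) had a FLAG peak in none of the 6 others, 31.8% in 1, 466 (33.1%) in 2, 324 (23.0%) in 3, 103 (7.32%) in 4, 4 in 5 and 0 in all 6. The most frequent pattern was S354F alone (390 sites, 27.7%), followed by R342C with S354F (225, 16.0%) and R339Q, R342C and S354F together (207, 14.7%). The same counts were not made for the kept sites or for all 14023. Over all sites S354F had a FLAG peak at 93.5% and H455R at 9.26%, so these patterns are not read as particular to the 1408. Over the 4 quartiles of the 1408 by WT FLAG value, the share with R342C FLAG was 34.4% in the weakest and 61.4% in the strongest. The shares with S354F (85.5% to 93.2%), R339Q (30.7% to 35.5%), K365T (9.09% to 11.6%) and Q418R (16.2% to 21.0%) stayed within narrow ranges over the same quartiles.

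Cohesin was present at most of these sites in WT cells, although it was no part of the rule. An SMC3 peak of WT overlapped 1147 of the 1408 sites (81.5%, 79.3 to 83.4), beside 90.7% of sites kept in all 3 and 84.3% of kept sites matched for WT FLAG value. The same share was 81.8% at sites lost in R377H only, 81.6% at those lost in R448Q only and 70.5% at those lost in all 3. The SMC3 peaks were high in the WT list, at a median percentile of 87.1 against 92.7 at kept sites. The sites were thus CTCF and cohesin sites in WT cells, and the SMC3 shares below are over the 1147 with a WT SMC3 peak.

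SMC3 stayed at many sites in the 2 mutants that the rule required to have no FLAG peak there. In R448Q an SMC3 peak was present at 1043 of the 1147 sites (90.9%, 89.1 to 92.5), beside 99.5% of kept sites and 98.2% of all sites with WT SMC3. In R377H it was present at 870 (75.8%, 73.3 to 78.2), beside 95.9% and 91.3%. In R377C, which kept FLAG at every site, it was present at 853 (74.4%, 71.8 to 76.8), beside 91.7% and 87.5%. The SMC3 lists of R448Q and R377H are the longest, with 153647 and 120444 peaks, and that of R377C has 100708. With every SMC3 list, WT included, cut to its 42030 highest peaks, the shares of sites with WT SMC3 were 75.3% in R448Q, 63.1% in R377H and 65.3% in R377C. The order of R377H and R377C thus turned with list length, and R448Q had the highest share of these 3 mutants either way.

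The other 6 mutants had these SMC3 shares. R342C had SMC3 at 93.2% of the 1147 sites, beside 98.1% of kept sites and 96.8% of all. S354F had it at 78.3%, beside 84.3% and 81.9%, and K365T at 69.0%, beside 95.5% and 90.1%. R339Q had it at 57.8%, beside 85.3% and 78.3%. H455R had it at 51.9%, beside 85.7% and 77.9%, and Q418R, with the shortest SMC3 list, at 44.3%, beside 83.4% and 74.4%. R342C and R448Q thus had SMC3 at the most sites, and Q418R and H455R at the fewest. The Q418R lists call for care, since its FLAG list holds 42030 rows before identical intervals are merged, exactly the number in its SMC3 list, and whether either was cut short is not stated. Without Q418R the mean FLAG difference was -31.5 points and the mean SMC3 difference -18.1.

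**Figure D3:**
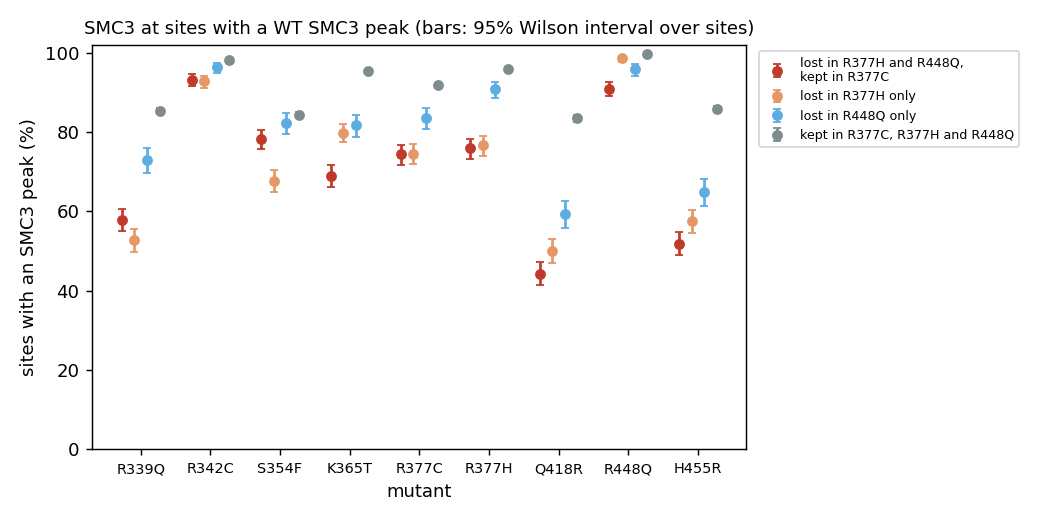
Percent of sites with an SMC3 peak (y axis) in each of the 9 mutants (x axis), over sites that have an SMC3 peak in WT, for 4 sets of WT FLAG sites; points are shares and bars 95% Wilson intervals over sites. Sites lost in R377H and R448Q (1147 sites, leftmost point) lie below those kept in all 3 (9054 sites, rightmost point) in all 9 mutants; the shares are 74.4% in R377C and 75.8% in R377H.

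Over the 9 mutants the SMC3 share at the 1147 sites was lower than at kept sites, with a mean difference of -20.4 percentage points and an SD of 12.3 (n = 9). The differences ran from -39.1 in Q418R to -4.90 in R342C and were negative in 9 of 9, and the exact two-sided sign-flip permutation test gave p = 0.00391, the smallest that 9 mutants can give (adjusted 0.0117). Matched for WT FLAG value, the mean difference was -16.5 points. The FLAG peaks of R377C, R377H and R448Q chose both sets, and these 3 are among the 9. All 9 differences share the same 2 sets of sites. The kept sites also ranked higher in the WT SMC3 list (median percentile 92.7 against 87.1). The p-value thus gives no support beyond the choice of the sets, and the part of site strength was not tested. The difference was -20.1 in R377H, -8.59 in R448Q and -17.3 in R377C. The mean over R377H and R448Q, the 2 mutants that the rule required to lack FLAG, was -14.3. Over the other 7 mutants it was -22.2, which puts the 2 at 7.85 points above the others. The other 7 include H455R, K365T and Q418R, which had FLAG at only 0.142%, 10.4% and 18.5% of the 1408 sites. The contrast therefore does not set mutants without FLAG against mutants with it. That contrast did not pass the exact permutation test over the 36 ways to pick 2 of 9 mutants (two-sided p = 0.5, adjusted 0.5, smallest possible 0.0278). It does not show that the mutants act alike at these sites. With equal numbers of top SMC3 peaks (42030 in every list) the contrast was 0.481 points.

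Site by site, most of the 1147 sites had SMC3 in both R377C and R377H. Each share alone was high (74.4% in R377C and 75.8% in R377H), so many sites would have both even if the peaks were not linked. Whether the pairs overlapped beyond their single shares was not tested. Both had a peak at 740 of the 1147 sites (64.5%), R377C alone at 113 (9.85%), R377H alone at 130 (11.3%) and neither at 164 (14.3%). R377C and R448Q both had one at 816 (71.1%), R377C alone at 37 (3.23%) and R448Q alone at 227 (19.8%). SMC3 followed the FLAG pattern, with a peak in R377C and none in R377H or R448Q, at 23 sites (2.01%), beside 3 of 9054 kept sites. The opposite pattern, SMC3 in R377H and R448Q but not in R377C, was found at 114 sites (9.94%). This count and those of the pairs were not made at kept sites. The SMC3 lists of R448Q and R377H are longer than that of R377C (153647 and 120444 peaks against 100708), and the part of list length was not tested. R377C, R377H and R448Q all had SMC3 at 726 sites (63.3%). All 9 mutants had it at 275 (24.0%, against 6085 of 9054 or 67.2% of kept sites), and no mutant at 13.

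Among the other mutants, SMC3 was more frequent at the sites where that mutant had FLAG. The same split was not made at kept sites or over all sites, so it is not read as particular to this set. In R339Q, SMC3 was present at 87.0% of the 384 sites with R339Q FLAG and at 43.1% of the 763 without. In S354F it was present at 82.3% of 1067 and 25.0% of 80, in Q418R at 76.5% of 217 and 36.8% of 930, in K365T at 99.2% of 119 and 65.5% of 1028, and in R342C at 98.9% of 551 and 87.9% of 596. The direction was the same in all 5 mutants, and H455R had too few FLAG peaks for the split. The median WT FLAG value was 3.13 at the sites with R342C FLAG and 2.84 at those without, so in R342C the split also goes with WT strength. In the other 4 mutants the medians of both groups lay between 2.92 and 2.99. The part of WT strength in the split was not tested. With 5 mutants a sign-flip test cannot go below 0.0625, so none is given. At sites without FLAG, the SMC3 share ran from 25.0% in S354F to 87.9% in R342C, and R377H (75.8%) lay inside that range and R448Q (90.9%) above it. Those 2 mutants have the longest SMC3 lists. With every SMC3 list, WT included, cut to equal length, their shares were 63.1% and 75.3%. The range at sites without FLAG was not computed at that length, so these 2 values cannot be placed against it.

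**Figure D4:**
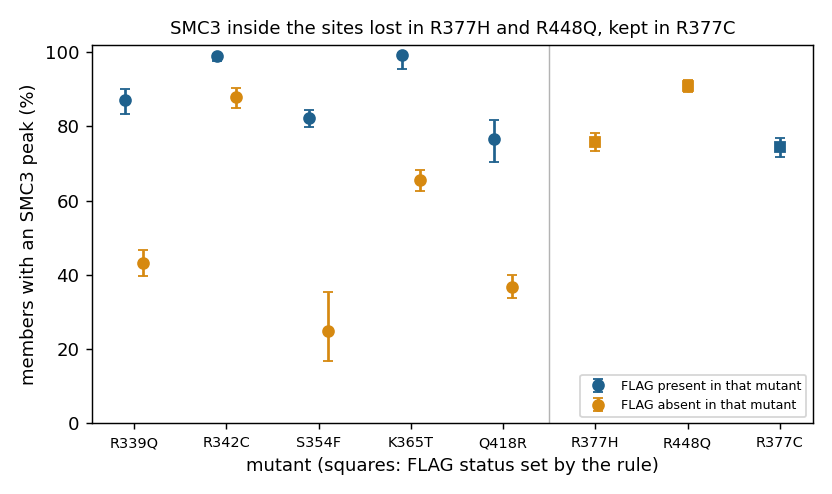
Percent of the sites lost in R377H and R448Q and kept in R377C that have an SMC3 peak (y axis), among those with SMC3 in WT, split by whether the same mutant has a FLAG peak at the site; squares mark the 3 mutants whose FLAG status the rule fixed, bars are 95% Wilson intervals over sites. SMC3 is more frequent where FLAG is present in R339Q, R342C, S354F, K365T and Q418R, and R448Q has SMC3 at 90.9% of sites without FLAG. The split was not made at other sites.

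The sites were unevenly spread over chromosomes. They made up 6.13% of the WT FLAG sites on chromosomes 1, 3 and 8 (139 of 2269, 5.21 to 7.19), 4.02% on chromosome 11 (42 of 1045, 2.99 to 5.39) and 11.5% on all others (1227 of 10709, 10.9 to 12.1), with a highest share of 14.1% on chromosome 13. Chromosomes 1, 3 and 8 also took up more of the R448Q lists than of the WT lists, by 1.99, 1.72 and 1.78 times in FLAG and by 2.44, 2.37 and 2.23 times in SMC3. Chromosome 11 took up 2.07 times as much of the R377H FLAG list and 3.32 times as much of its SMC3 list. The R377C ratios on these 4 chromosomes lay between 0.993 and 1.14 in FLAG. Chromosome X also had a low share of the sites (13 of 203, interval 3.78% to 10.6%), while its FLAG ratios were 0.920 in R448Q and 0.984 in R377H and its SMC3 ratio in R448Q was 1.68. A low share thus went with an excess of R448Q or R377H peaks on chromosomes 1, 3, 8 and 11, but on X without one in FLAG. The rule requires FLAG peaks of R377H and R448Q to be absent. More such peaks on a chromosome therefore lower its share by the choice of sites, and the link is no separate result.

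The single-mutant patterns, which the same FLAG lists define, moved the same way. Sites lost in R377H only made up 15.9% on chromosomes 1, 3 and 8, 3.16% on chromosome 11 and 8.78% elsewhere, and sites lost in R448Q only 1.81%, 9.57% and 7.75%. Copy number was not measured, and its part in these shares was not tested. Without chromosomes 1, 3, 8 and 11 the mean FLAG difference was -35.8 points and the mean SMC3 difference -20.8, against -35.9 and -20.4 with them. H455R FLAG was likewise at 65 of 940 sites lost in R377H only (6.91%) and 1 of 830 lost in R448Q only (0.120%) on the remaining chromosomes, although chromosome 8 alone takes up 5.48 times as much of the H455R list as of the WT list.

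**Figure D5:**
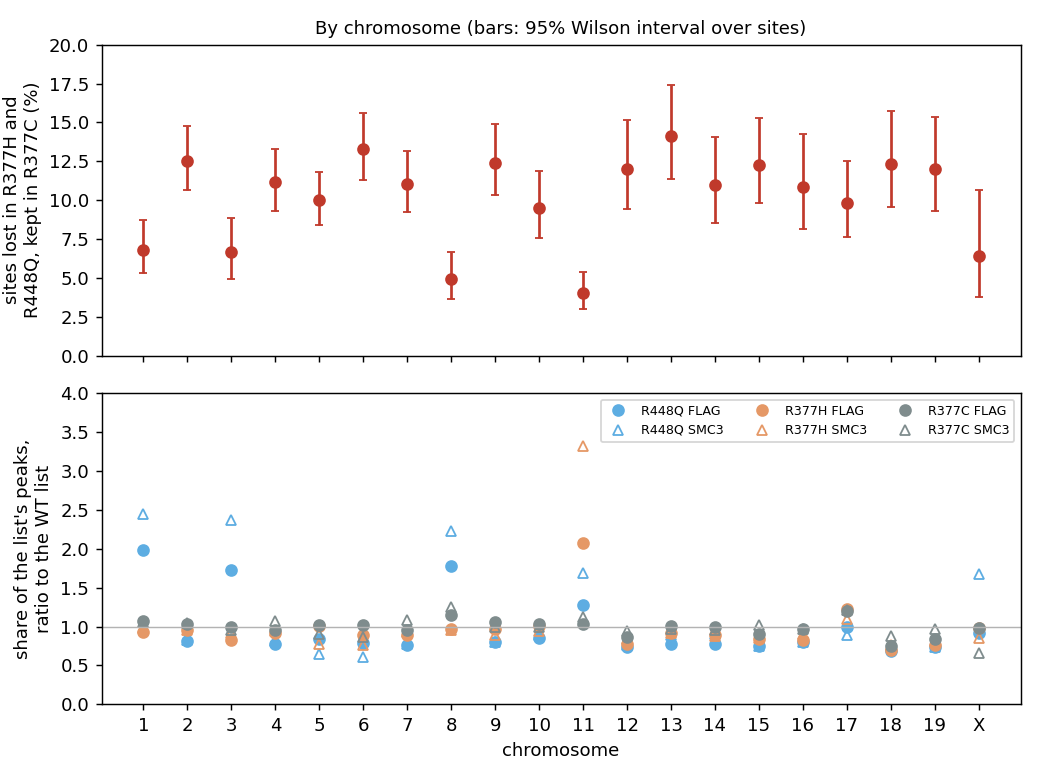
Upper panel: percent of WT FLAG sites per chromosome that were lost in R377H and R448Q and kept in R377C, with 95% Wilson intervals over sites. Lower panel: share of each mutant's FLAG (circles) or SMC3 (triangles) peaks on a chromosome divided by the same share in the WT list. The share of sites is lowest on chromosomes 8 and 11 (4.93% and 4.02%), where R448Q or R377H has an excess of peaks. The rule requires their FLAG peaks to be absent, so such an excess lowers the share by the choice of sites.

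The sites lay relative to genes much as all WT FLAG sites did. A gene end, taken as either end of a protein-coding or lncRNA span within 1 kb, was found at 234 of the 1408 sites (16.6%, 14.8 to 18.7), beside 15.3% of all 14023 sites and 15.2% of kept sites. Of the rest, 45.0% lay inside a gene span and 38.4% between genes. At kept sites these shares were 44.9% and 39.9%. The sites lost in all 3 mutants lay between genes more often (50.7%, 44.9 to 56.5). The gene table gives spans without strand or exons, so start and end, exon and intron could not be told apart. The nearest other WT FLAG site was a median of 24.0 kb away, against 19.6 kb at kept sites, 32.3 kb at those lost in R377H only and 17.4 kb at those lost in R448Q only.

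The sites with the highest WT FLAG values show how differently cohesin behaved within the set. All positions are in mm10. The highest lay 26.3 kb from T, which encodes the mesoderm factor brachyury, at chr17:8468805-8469030, with a WT FLAG value of 7.30 and an R377C value of 5.44. R342C and S354F also had FLAG there, and SMC3 was present in WT and in every mutant but R339Q. The sites near Maml2 (chr9:13716326-13716799), a coactivator of Notch signalling, and inside Fgd4 (chr16:16584689-16585019), an exchange factor for a small GTPase, had SMC3 in WT and all 9 mutants. At Maml2 the SMC3 values were 9.74 in WT, 4.93 in R377C, 5.63 in R377H and 9.42 in R448Q, and at Fgd4 19.4, 9.42, 7.07 and 17.6, each within its own list. The site inside Spink13 (chr18:62685461-62685753) had SMC3 in all 9 mutants too, and so did that near Slc28a3 (chr13:58640185-58640795), a nucleoside transporter gene.

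Other strong sites lost cohesin in many mutants. At the gene end of Mill1 (chr7:18265189-18265336; WT FLAG value 6.32, R377C value 3.84) SMC3 was present in WT alone, with a value of 4.54, and in none of the 9 mutants. The site 12.8 kb from Slc22a8, an organic anion transporter gene (chr19:8578221-8578446; WT FLAG value 6.49), had SMC3 in WT (5.48) and R377C (3.29) and none in R377H, R448Q, R339Q, Q418R and H455R. It is the strongest of the 23 sites where SMC3 followed FLAG. The sites next in strength with that pattern lay near Tm4sf20, Sypl, Moxd1 and Mpp7 and inside Pou2f2, a POU-domain transcription factor gene. Their WT SMC3 values lay between 3.34 (Sypl) and 5.61 (Mpp7) and their R377C SMC3 values between 2.63 (Tm4sf20) and 4.04 (Moxd1). Inside Zmiz1 (chr14:25565824-25566062) SMC3 was absent in R339Q, Q418R and H455R, and inside Trpm3 (chr19:22883990-22884237), an ion channel gene, in H455R alone.

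A few sites were weak in the WT FLAG list and among the strongest in R377C. The site 76.0 kb from Shisa3, its nearest protein-coding gene (chr5:67531590-67531843), had a WT FLAG value of 3.08 (percentile 33.4 of the WT list) and an R377C value of 25.7 (percentile 99.8 of the R377C list). Its CTCF antibody percentile in untreated cells was 98.9. A site nearest to Mtx2 (chr2:75054968-75055115) stood at percentile 27.9 in WT FLAG and 99.3 in R377C, and sites inside Mogat1, Atp2b2, Greb1 and 4921524L21Rik at percentiles between 15.7 and 27.9 in WT and between 98.6 and 99.2 in R377C. None of these 6 had a FLAG peak in R377H or R448Q, by the rule. WT had an SMC3 peak at Mogat1 and Greb1 alone among them. Of the 9 mutants, 5 had one at Shisa3, 5 at Atp2b2, 4 at Mtx2, 3 at Mogat1 (with a value of 17.6 in R448Q) and 0 at Greb1 and 4921524L21Rik. These 6 were chosen by their R377C value, so their high rank there is a description.

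FLAG was kept in R339Q, R342C, S354F, K365T and Q418R at 4 of the 1408 sites. They lay at gene ends of Med23, a Mediator subunit gene (chr10:24869655-24869982), and Klhdc9 (chr1:171361278-171361393), inside Paqr5 (chr9:61965761-61965947) and 32.6 kb from Gm29808 (chr3:80958693-80958934). Their WT FLAG values were 4.86, 2.35, 4.62 and 4.59. SMC3 was present in all 9 mutants at Med23 and Paqr5, in all but H455R at Gm29808, and in all but R339Q and H455R at Klhdc9. At these sites R377H, R448Q and H455R were the mutants without FLAG.

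Among gene ends, the strongest sites after Mill1 lay at Emc4, a subunit of an endoplasmic reticulum insertion complex (WT FLAG value 5.60), Fbxo5, an inhibitor of the anaphase-promoting complex (5.51), and Msrb2, a methionine sulfoxide reductase gene (4.86). At Emc4 SMC3 was present in WT (5.61), R377H (3.62) and R448Q (6.47) and absent in R377C. The R377C FLAG peak there was near the bottom of its list, at percentile 3.54. At Fbxo5 it was present in WT (3.89) and R448Q (5.69) and absent in R377C and R377H. At Msrb2 it was present in WT (7.07), R377C (3.07), R377H (3.60) and R448Q (6.86). The promoter sites whose sequences are printed above differed as well: at Gm33460, Cluap1, Snx18, Nudt17 and Fam241b SMC3 was present in all 9 mutants, and at Dapk2, a kinase gene, in none of them.

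Few WT FLAG sites, and so few of the 1408, lay near genes that define the stem cell or its first lineages. Within 10 kb, the pluripotency list of 26 genes had 13 WT FLAG sites and 1 of the 1408, the trophoblast list (15 genes) 10 and 1, the neural list (20 genes) 10 and 1, and the mesoderm and endoderm list (22 genes) 11 and 3. The Hox list (39 genes) had 14 and 2, the clustered protocadherin list (57 of 58 genes matched) 23 and 2, the cohesin and CTCF list (19 genes) 14 and 2, the chromatin modifier list (27 genes) 10 and 2, and the imprinted list (33 of 34 genes matched) 16 and 0. With 10.0% of all sites in the set, these counts are too small to set any list apart.

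Cohesin was retained at several of these developmental genes. The site inside Esrrb, a nuclear receptor of the naive pluripotency network (chr12:86402847-86403091), had WT FLAG 5.27 and R377C FLAG 7.18, no FLAG in other mutants but S354F, and SMC3 in WT (12), R377C (7.77), R377H (9.61), R448Q (12.3) and every other mutant. The site 3.53 kb from Eomes, a T-box factor of mesendoderm and trophoblast (chr9:118489663-118490208), had WT FLAG 4.70 and R377C FLAG 3.53, with SMC3 in WT (11.5) and all 9 mutants. Its core is the first of the sequences printed above. The site inside Hoxa3 (chr6:52211444-52211838) also kept SMC3 in all 9 mutants, as did that inside Stag1 (chr9:100643519-100643733), which encodes a cohesin subunit. At Cdx2, the trophoblast regulator (chr5:147299260-147299391), SMC3 was absent in Q418R and H455R, and at Nkx2-2, a neural factor (chr2:147177714-147177906), in R339Q and H455R.

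Other listed sites had little cohesin or lost it. The site at the end of Hoxd11 (chr2:74686463-74686614) had no SMC3 peak in WT or any mutant. Near Gata4, an endoderm and heart factor, the site inside the gene (chr14:63207265-63207393) had SMC3 in WT (5.34) and R448Q (3.75) but in neither R377C nor R377H, and the one next to Neil2 (chr14:63195902-63196007) had it in WT (3.88) and R448Q (4.53) and likewise in neither R377 mutant. The R377C FLAG peak stood at percentile 4.51 of its list at the Gata4 site and at 62.5 at the Neil2 site. Both protocadherin sites, at Pcdhgb1 (chr18:37680163-37680292) and at Pcdhga1 (chr18:37655505-37655699), had no WT SMC3 peak and 1 mutant with one. The site near Nipbl, the cohesin loader (chr15:8445457-8445598), had SMC3 in R448Q alone. The sites inside Hdac1 (chr4:129540180-129540294), a histone deacetylase gene, and at Aire and Dnmt3l (chr10:78043452-78043697) had SMC3 in WT and in 7 of the 9 mutants, R377C, R377H and R448Q included.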

How the data were processed

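The labels give 48 samples, 2 replicates in each of 24 groups, and 22 groups have a pooled peak list used here. The IgG control and FLAG in untreated WT cells were not analysed here. Per the submitters' processing notes, the authors used Trim Galore, Bowtie2, MACS2 and deepTools and mapped to mm10. No tool version is stated in the sources used here. The deposited value of each peak is a score in the last column of lists without a header, of unknown kind, so it was compared only within a list. Where a FLAG interval was listed once per summit, the copies were merged with the highest score kept. Peak names inside the lists carry other replicate numbers than the titles, so the title alone says which libraries were pooled. Without replicates or depth, no precision beyond counting error over sites can be given.

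Peaks that overlapped by 1 bp or more were taken as shared, using Python 3.11.15, numpy 2.4.6 and pandas 2.3.3. The overlap code was tested on simulated data and checked with bedtools 2.31.1. Exact two-sided sign-flip and permutation tests ran over mutants, with Benjamini-Hochberg adjustment over 3 tests. Shares have 95% Wilson intervals (scipy 1.17.1), and figures used matplotlib 3.10.9. Percentiles are ranks within a list. Standardised values weight comparison sites to the deciles of WT FLAG score of the 1408 sites. Genes (34631 protein-coding and lncRNA spans) and promoters came from RefSeq tables of GRCm38.p6 (the same assembly as mm10).

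Each site carries the name of its nearest protein-coding gene. Named were the 8 with the highest WT FLAG score, the 6 with the highest R377C score, those with FLAG in 5 other mutants, the 6 strongest where SMC3 followed FLAG, the 4 strongest with SMC3 in all 9 mutants, the 4 strongest at gene ends and up to 3 per gene list within 10 kb. Promoter sites were named by the promoter's gene and chosen by WT FLAG score. The sites, lists and rules were chosen with earlier results of these data known.

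Alternatives were a reciprocal overlap of 50%, a match within 500 bp, equal numbers of top FLAG or SMC3 peaks, the upper 50% of WT sites, an untreated CTCF antibody peak as a further condition, gene ends within 5 kb, 200 bp around the peak's middle for the motif, standardisation and leaving out each mutant. Leaving out chromosomes 1, 3, 8 and 11 and taking mutants whose SMC3 peak names carry the tag b1 alone were chosen after seeing the data.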

Additional observations from a re-analysis of the deposited data

How the results depend on the processing

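The number of sites depended most on the processing. It was 5 with a reciprocal overlap of 50%, because treated CTCF antibody peaks at these positions are far wider than FLAG peaks (median 2497 bp over all WT FLAG sites) and only 38 WT FLAG peaks met that overlap. It was 841 with equal numbers of top FLAG peaks, 269 in the upper 50% of WT sites and 1349 with a match within 500 bp. The FLAG difference kept its sign in every alternative, all of which choose both sets by R377H and R448Q peaks. Leaving out 1 mutant gave -41.8 to -30.8 points, each with an exact p of 0.0625, the smallest that 5 mutants allow. The SMC3 difference lay between -22.4 and -18.1 when 1 mutant was left out (exact p = 0.00781 each, the smallest that 8 mutants allow). All 9 differences were negative, so these p-values could take no other value. They give no support beyond the choice of the sets. The SMC3 difference was -26.6 with equal numbers of top SMC3 peaks. It was -18.8 over the 5 mutants whose SMC3 names carry the tag b1 alone (exact p = 0.0625, the smallest possible). The share at gene ends was 42.5% within 5 kb, beside 39.9% of all sites, and 20% under the reciprocal overlap. No paired analysis was possible because each list pools replicates 1 and 2. Depth is unknown, so a missing peak may reflect a shorter list, and with 1 list per genotype no difference between single mutants has a replicate check.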
